A study of Homo sapiens with 3 samples.

Results

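The cytosolic ribosomal protein genes are the protein-coding genes whose products, together with ribosomal RNA, form the large and small subunits of the ribosome that works outside mitochondria. They were chosen by symbol: RPL or RPS followed by a number and at most 1 letter (A, X, Y or L), together with RPLP0, RPLP1, RPLP2 and RPSA, and without the RPS6K kinases. On chromosomes 1 to 22 and X this gave 81 genes, 49 of the large and 32 of the small subunit, of 19748 protein-coding genes in GENCODE 44 on hg19. The same naming rule for the mitochondrial ribosome (MRPL and MRPS) gave 78 genes, which served as another set of active promoters.

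The chromatin came from MDA-MB-231, a line of human breast cancer cells without hormone receptors, grown in RPMI1640 with penicillin, streptomycin and 10% FBS, and no treatment or genetic change is labelled. One immunoprecipitation used the RBPSUH(D10A4) antibody against RBPJ, which is also called CBF1, and gave 2926 peaks. The other used an anti-L3MBTL3 antibody from Bethyl and gave 444 peaks, and the input library was not analysed here. Each antibody had 1 library, so no value below has a replicate error and no test between conditions was possible; the intervals given are 95% Wilson intervals and cover counting error only, over genes that are not independent of each other.

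RBPJ is the DNA-binding protein of the Notch pathway: it recruits corepressors in the absence of Notch signalling and, with the cleaved Notch receptor and Mastermind, activates transcription. L3MBTL3 is a methyl-lysine reader with MBT domains that binds RBPJ and acts as a corepressor, and the series asked where both proteins lie on chromatin. Ribosomal protein genes are among the most highly transcribed genes of growing cells, usually have CpG-rich promoters, and start transcription within a pyrimidine tract that becomes the terminal oligopyrimidine (TOP) sequence of the mRNA, through which translation answers to mTOR.

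At 4 of the 12 genes with an RBPJ peak at their own promoter, a called peak held the hexamer TGGGAA, the core of the RBPJ binding sequence. The RPL39 promoter carried the full 8-base word (CGTGGGAA or TGTGGGAA) between its 2 peaks. Within 100 bp of the summit the hexamer was at 6 of the 15 own-promoter peaks (40.0%, 19.8 to 64.3), with the same RPL39 hexamer counted at both RPL39 peaks. Of all RBPJ promoter peaks 21.5% had it, which lies inside that interval, so the shares cannot be told apart. Among these genes, RPL14 and RPLP2 are printed because the hexamer lies in the called peak. RPL39 is printed because it has the full word near its summits, though in neither called peak. Each is read from hg19 on the strand of the gene, with TGGGAA or its complement TTCCCA in capitals; in RPL39 the capitals mark the full word, in RPLP2 they also mark a cyclic AMP response element (CRE, TGACGTCA).
RPL39, minus strand, chrX:118925693-118925740: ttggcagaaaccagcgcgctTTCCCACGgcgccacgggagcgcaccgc
RPL14, plus strand, chr3:40498683-40498748: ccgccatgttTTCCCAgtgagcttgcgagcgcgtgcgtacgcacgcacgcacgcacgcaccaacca
RPLP2, plus strand, chr11:809768-809889: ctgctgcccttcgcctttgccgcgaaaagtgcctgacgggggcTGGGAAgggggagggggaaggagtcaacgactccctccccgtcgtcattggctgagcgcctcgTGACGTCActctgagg
The RPL14 and RPLP2 lines are the whole called peaks, and the RPL39 line is the word with 20 bases on either side. The hexamer of RPL5 lies in the transcribed part and is shown with the start sites below.

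RBPJ summits lay within 10 kb of a transcription start site (TSS) of 16 of the 81 ribosomal protein genes (19.8%, 12.5 to 29.7). Over all protein-coding genes the share was 11.3%, and over the 13095 genes with a CpG-rich start (an observed over expected CpG ratio above 0.6 in 1 kb) it was 15%. Since 80 of the 81 ribosomal protein genes were CpG-rich, the CpG-rich share is the closer background, and it lies inside the members' interval. A peak was counted at the own promoter where a TSS of the gene was the nearest of all protein-coding TSS and lay within 1 kb of the summit. By that rule 12 members had an own peak (14.8%, 8.68 to 24.1), against 7.9% of all protein-coding genes and 11.3% of the CpG-rich ones. Of the remaining members, 4 had only a peak that was nearer to another gene, and 65 had no summit within 10 kb.

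The large subunit held most of these promoters. An own peak was found at 10 of 49 large-subunit genes (20.4%, 11.5 to 33.6) and at 2 of 32 small-subunit genes (6.25%, 1.73 to 20.1). The 2 intervals overlap, and the difference between the subunits was not tested. Of the 49 large-subunit genes 37 had no summit within 10 kb, and of the 32 small-subunit genes 28 had none.

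**Figure D1:**
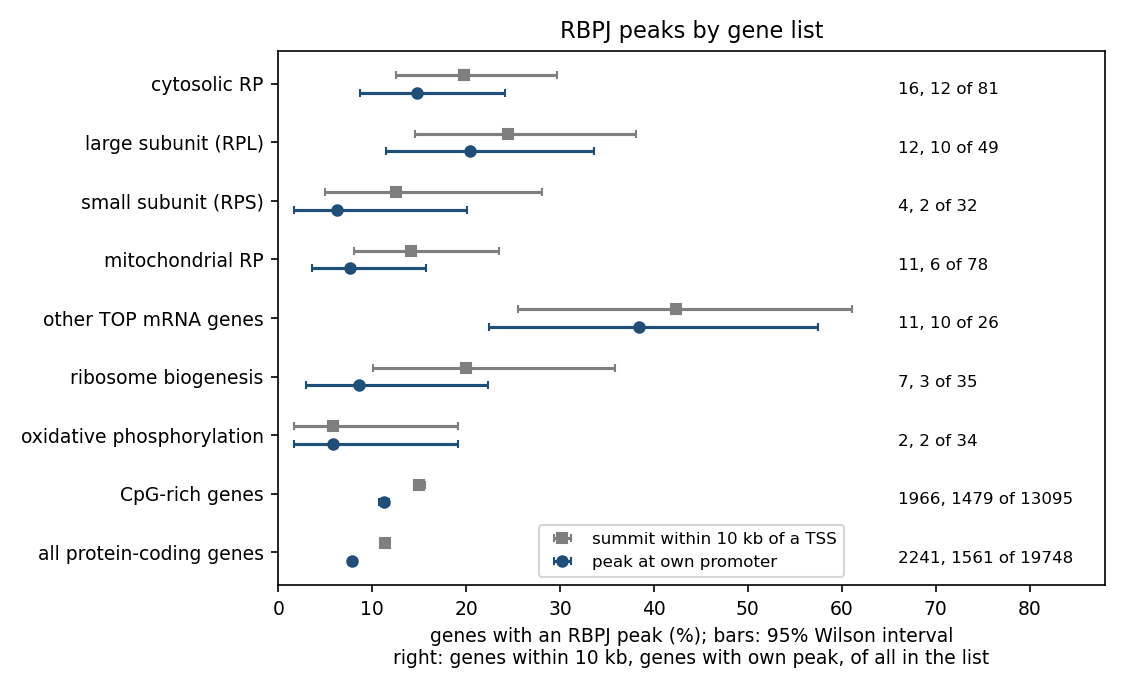
Share of genes with an RBPJ summit within 10 kb of a TSS (squares) and with a peak at the own promoter (circles), in percent, for each gene list; bars are 95% Wilson intervals and the counts stand at the right. The ribosomal protein genes lie at 19.8% and 14.8%, with intervals that include the shares of the CpG-rich genes, 15% and 11.3%.

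The folds below are those deposited with the peaks, a ratio of the signal at the summit over the peak caller's background, and the median over all 2926 RBPJ peaks was 5.08. The highest own-promoter fold of the large subunit was 6.28, at RPL13A (chr19:49990484-49990574), whose product also takes part in silencing inflammatory mRNAs outside the ribosome. That summit lay 223 bp upstream of the nearest TSS, and a second RPL13A peak (chr19:49990639-49990695) had a fold of 4.18 and a summit 125 bp upstream. Next came RPL5 with a fold of 6.27 (chr1:93297571-93297654), whose summit lay 7 bp inside the transcript, in the UTR. RPL5 carries the small rRNA of the large subunit and, with RPL11, restrains the p53 ligase MDM2 when ribosome assembly fails. The stronger RPL13A peak and the RPL5 peak stood at percentiles 86.1 and 85.8 of the list by fold.

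A second group of large-subunit peaks lay around the list median. RPL39, which lines the exit tunnel of the nascent chain, had a fold of 5.66 with its summit 82 bp upstream (chrX:118925600-118925686). A weaker RPL39 peak of fold 3.62 lay 180 bp upstream (chrX:118925752-118925862). RPL31, at the mouth of the same tunnel, had a fold of 5.36 with its summit 13 bp upstream of one TSS and in the UTR of another transcript (chr2:101618671-101618778). RPL23A, also at the tunnel exit, had a fold of 5.31, 178 bp upstream, over the widest of the own-promoter peaks (173 bp). The summits of RPL39, RPL31 and RPL23A thus all lay within 200 bp of a start, on the upstream side of the nearest TSS.

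The other large-subunit peaks were below the list median. RPL14 and RPL18, both structural proteins of the large subunit, had the same deposited fold, 4.83. The RPL14 summit lay 82 bp upstream of its nearest TSS, and the RPL18 summit 12 bp downstream, in the UTR (chr19:49122328-49122449). RPL18 is read head to head with SPHK2, a sphingosine kinase gene whose nearest TSS was 140 bp from the same summit, so the peak cannot be given to RPL18 alone. RPLP2, a protein of the stalk that recruits elongation factors, had a fold of 4.58 with its summit 173 bp upstream. Neither RPLP0 nor RPLP1, which form that stalk with it, had an RBPJ summit within 100 kb: their nearest ones were 110421 bp and 2295562 bp away.

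The lowest folds were at RPL10A and RPL6. RPL10A, a protein of the mobile L1 stalk at the exit site for used tRNA, had a peak of fold 4.25 with its summit 60 bp upstream (chr6:35436073-35436147). Another of fold 3.59 had its summit 103 bp downstream, in an intron (chr6:35436253-35436339). At RPL6 the fold was 3.50 (chr12:112856649-112856739), at percentile 2.61 of the list. Its summit lay 17 bp upstream of an alternate RPL6 start (relative to the canonical start it is at −9250 bp). It also lay inside PTPN11, the gene of the phosphatase SHP2, and 52 bp from a PTPN11 start. With canonical starts alone RPL6 drops out and 11 members with an own peak are left.

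In the small subunit the own peaks were those of RPS29 and RPS21. RPS29, a zinc-binding protein of the subunit's head, had a fold of 4.89 with its summit 142 bp upstream of the nearest TSS (chr14:50053233-50053339). That summit was inside the annotated span of the RPS29 gene, in no UTR or coding exon. RPS21 had a fold of 4.18 with its summit 40 bp upstream (chr20:60962090-60962164). Both folds were below the list median. The RPS21 peak is printed with its ETS word (CCGGAAG) in capitals.
RPS21, plus strand, chr20:60962090-60962164: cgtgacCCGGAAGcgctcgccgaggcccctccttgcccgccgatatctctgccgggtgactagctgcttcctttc
RPS29 was also the member with repeated sequence under its peak: of the 108 words of 50 bases (the read length) from the peak and 25 bases to either side, 89 occur once in hg19 (82.4%), and the others up to 3 times. For each of the other 19 peaks within 10 kb of a member, 100% of these words were unique.

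**Figure D2:**
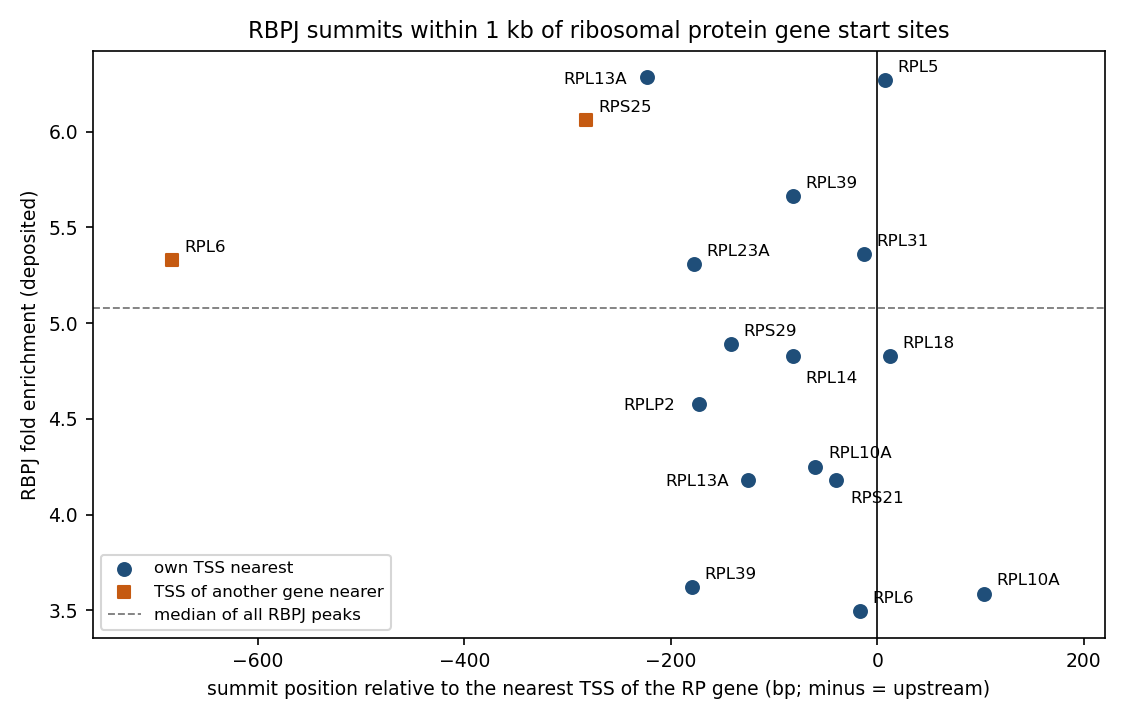
Deposited RBPJ fold (vertical axis) against the position of the summit relative to the nearest TSS of the ribosomal protein gene (horizontal axis, bp, minus for upstream), for all summits within 1 kb; circles have the gene's own TSS nearest, squares a TSS of another gene, and the dashed line is the median of all RBPJ peaks, 5.08. The 15 own-promoter summits lie between 223 bp upstream and 103 bp downstream, 5 of them above the line.

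In all, the 12 genes carried 15 own-promoter peaks, with folds of 3.50 to 6.28 and a median of 4.83 (SD over these peaks 0.899, n = 15). The median over the 1876 RBPJ peaks within 1 kb of any TSS was 5.08, with quartiles at 4.47 and 5.70, so the members' folds lay in the range of ordinary promoter peaks and the highest stood at percentile 86.1. Of the 15 peaks, 5 were above the median of the whole list, and 3 had a −log10 q of at least 5. That q was reached by 359 of the 1876 promoter peaks and by 640 of the 2926 peaks of the list. Widths were also ordinary: the median was 91 bp at the members and at all promoter peaks.

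Many folds were not distinct values. Of the 2926 RBPJ peaks 2323 (79.4%) share their fold and q with another peak of the list, and the values of RPLP2 recur in 76 peaks, those of RPL14 and RPL18 in 58 and those of RPS21 and the weaker RPL13A peak in 42. No read counts come with the peaks, so how far a single fold could err is not known, and an order among members with close or equal folds cannot be read.

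**Figure D3:**
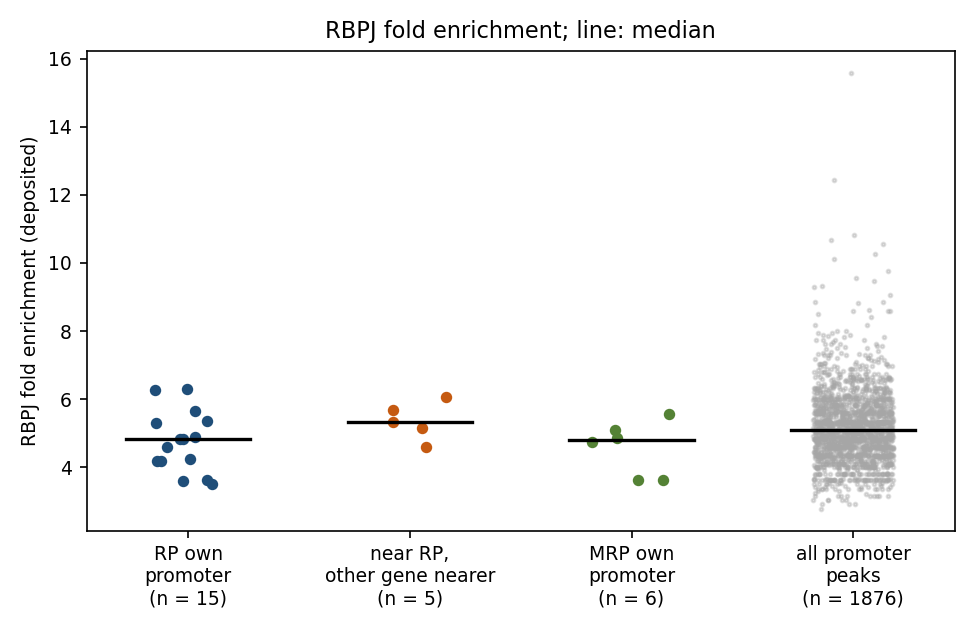
Deposited RBPJ folds (vertical axis) of single peaks (points) at ribosomal protein promoters, near these genes but nearer to another gene, at mitochondrial ribosomal protein promoters and at all promoters; black lines are medians, and the sideways scatter has no meaning. The medians are 4.83, 5.33, 4.79 and 5.08, and no member peak exceeds 6.28, while promoter peaks reach 15.6.

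Most summits at the members lay on the upstream side of the start. Of the 15 own-promoter summits 12 were upstream of the nearest TSS (80.0%, 54.8 to 93.0), and 3 were downstream (RPL5, RPL18 and the weaker RPL10A peak). Of all promoter peaks 65.6% were upstream, which lies inside that interval. All 12 upstream summits were within 250 bp of the TSS. The stretch from 250 bp upstream to the TSS thus held 80.0% of the 15 member summits (54.8 to 93.0). Of all promoter peaks 52.0% lay there, just below that interval. The 15 peaks come from 12 genes, 3 of them with a pair, so they are not independent, and the difference was not tested. From the canonical start the stronger RPL13A summit is at −321 bp and the RPL6 summit at −9250 bp, outside the stretch. The median position was 82 bp upstream against 41 bp. Within 100 bp of a TSS on either side were 53.3% of the member summits and 49.7% of all promoter summits. By annotation 9 summits lay outside protein-coding genes, 3 in a UTR and 3 inside a gene span but in no UTR or coding exon.

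A total of 3 members carried a pair of own-promoter peaks: RPL10A, RPL13A and RPL39 (25% of 12, 8.89 to 53.2). Of the 1561 protein-coding genes with an own peak, 271 (17.4%) had more than 1. The summits of the pair were 98 bp apart at RPL13A and at RPL39 and 163 bp apart at RPL10A, and the stretches between the called peaks were 64, 65 and 105 bp long. At RPL39 the full RBPJ word lies in that stretch, 41 bp from the stronger summit and 57 bp from the weaker one, and in neither called peak.

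Peaks near a member were not always at its promoter: 5 further peaks within 10 kb were nearer to another gene, with folds of 4.58 to 6.06 and a median of 5.33. The highest, 6.06, lay inside the annotated span of the RPS25 gene but upstream of its only protein-coding start. It was between that start and the nearest start of TRAPPC4, which encodes a subunit of a vesicle-tethering complex (chr11:118889014-118889374, 361 bp wide). Its summit was 141 bp from TRAPPC4 and 282 bp upstream of RPS25, a small-subunit protein used in initiation at viral internal ribosome entry sites. If any TSS within 1 kb counted, RPS25 would join and 13 members would have an own peak. A second peak at the alternate RPL6 start, of fold 5.33, was 409 bp from PTPN11 and 683 bp from RPL6 (chr12:112857267-112857363).

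The peaks near RPL35 and RPL8 belonged to the promoters of neighbours. ARPC5L, which encodes a subunit of the actin-nucleating Arp complex, had a peak of fold 5.68 at 121 bp from its start and 7123 bp from RPL35. RPL8, a protein close to the peptidyl transferase centre, had peaks at 5325 and 6163 bp, at the starts of the zinc finger genes ZNF34 (476 bp, fold 5.15) and ZNF517 (163 bp, fold 4.58). Just outside the 10 kb limit were RPL24, with a summit at 10449 bp (fold 5.33), and RPS9, with one at 10628 bp (fold 6.04). RPS28 followed at 13092 bp.

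The sequence around the own-promoter summits was searched on both strands, 100 bp to either side, for words fixed by their letters. TGGGAA was present at 6 of the 15 peaks (40.0%, 19.8 to 64.3), against 21.5% of all promoter peaks and 13.5% of windows of the same length at the canonical TSS of all protein-coding genes. By gene, with the hexamer shared by both RPL39 peaks counted once, this was 5 of 12 (41.7%: RPL5, RPL14, RPL23A, RPL39 and RPLP2) against 24.3% of the 1561 genes with an own peak. The interval reaches from below the background to far above it, so the share cannot be told from that of other promoter peaks. In windows of that length at the canonical start, 5 of 12 members with an own peak had the word (41.7%, 19.3 to 68.0), against 11 of 69 without one (15.9%, 9.14 to 26.3), and these intervals overlap. This second count of 5 does not rest on the same words as the first. The summit hexamers of RPLP2, RPL14 and RPL39 are centred at −154, −135 and −124 bp from the canonical start, outside its window. RPL6 is among the 12, though its peak lies at −9250 bp from that start.

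The hexamer lay close to the summit at 3 genes and farther off at the others. Its centre was 6 bp from the summit at RPL14, 18 bp at RPL5 and 19 bp at RPLP2. At RPL39 it was 42 bp from the stronger summit, and at RPL23A 79 bp. In the printed RPL14 peak it stands 10 bases from the upstream end, while the RPL23A peak is much wider. The 5 genes with the hexamer had highest folds of 4.58 to 6.27 (median 5.31), and the 7 without it 3.50 to 6.28 (median 4.83), so the ranges overlap almost fully.

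The full 8-base word was found at 2 of the 15 peaks (13.3%, 3.74 to 37.9), which are the 2 RPL39 peaks over 1 and the same word, against 5.60% of all promoter peaks. By gene this was 1 of 12 (8.33%, 1.49 to 35.4), against 6.79% of the 1561 genes with an own peak. Within 500 bp of the canonical TSS the word occurred at 3 of 12 members with an own peak (25%, 8.89 to 53.2) and at 6 of 69 without one (8.70%, 4.05 to 17.7). Over all protein-coding genes these shares were 11.2% and 7.19%. Beside RPL39, the members with both word and peak were RPL23A and RPL14, and in neither was the word in the called peak: it was 169 bp from the RPL23A summit and 325 bp from the RPL14 summit. They are printed with the word in capitals and 15 bases to either side.
RPL23A, plus strand, word at chr17:27046990-27046997: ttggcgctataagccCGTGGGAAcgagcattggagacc
RPL14, plus strand, word at chr3:40498372-40498379: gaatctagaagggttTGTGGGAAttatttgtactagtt
The RPL23A word is centred at −9 bp from the canonical start, whereas the RPL14 word is at −454 bp from it. RPL4, RPL7A, RPL30, RPS14, RPS19 and RPS24 carry the word within 500 bp and had no RBPJ summit within 100 kb, so the word was also present at members without a peak.

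Other words differed in how often they occurred. The CRE, the site of CREB and ATF proteins, was present at 3 of 15 peaks (20%, 7.05 to 45.2), those of RPL18, RPLP2 and RPS29, against 2.03% of all promoter peaks. In windows at the canonical start it was at 2 of 12 members with an own peak (16.7%, 4.70 to 44.8) and at 0 of 69 without one, which allows a share of up to 4.35%. Over all genes it was at 2.04% of starts. The word lay inside the called peak at RPLP2 and RPS29, 83 and 10 bp from the summit, and outside it at RPL18. This rests on 3 genes of a series of 9 words searched.

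ETS words (CCGGAAG) were found at 4 of 15 peaks (26.7%, 10.9 to 52.0), those of RPL13A, RPL31, RPLP2 and RPS21, against 11.3% of all promoter peaks. Members without an own peak had the ETS word at 27.5% of starts, so it was as common at members where no peak was called. Starts of mitochondrial ribosomal protein genes had it at 35.9% and those of all protein-coding genes at 11.2%. The GC box (GGGGCGGGG), common at RBPJ promoter peaks (29.0%), was at 0 of the 15 member peaks, which allows a share of up to 20%. Members without an own peak had it at 11.6% of starts. YY1 (AAGATGGC) and AP-1 (TGACTCA or TGAGTCA) words were also at 0 of 15, against 2.35% and 3.78% of all promoter peaks. NRF1 (CGCATGCG) was at 1 peak, at RPL10A, and an E-box (CACGTG) at 1, the weaker RPL13A peak. Of all promoter peaks 2.29% and 7.73% had these 2 words. RPL6 was the only member with an own peak and none of the 9 words. The weaker RPL13A peak is printed with its E-box and ETS word in capitals.
RPL13A, plus strand, chr19:49990639-49990695: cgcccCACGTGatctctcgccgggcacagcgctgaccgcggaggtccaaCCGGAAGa

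**Figure D4:**
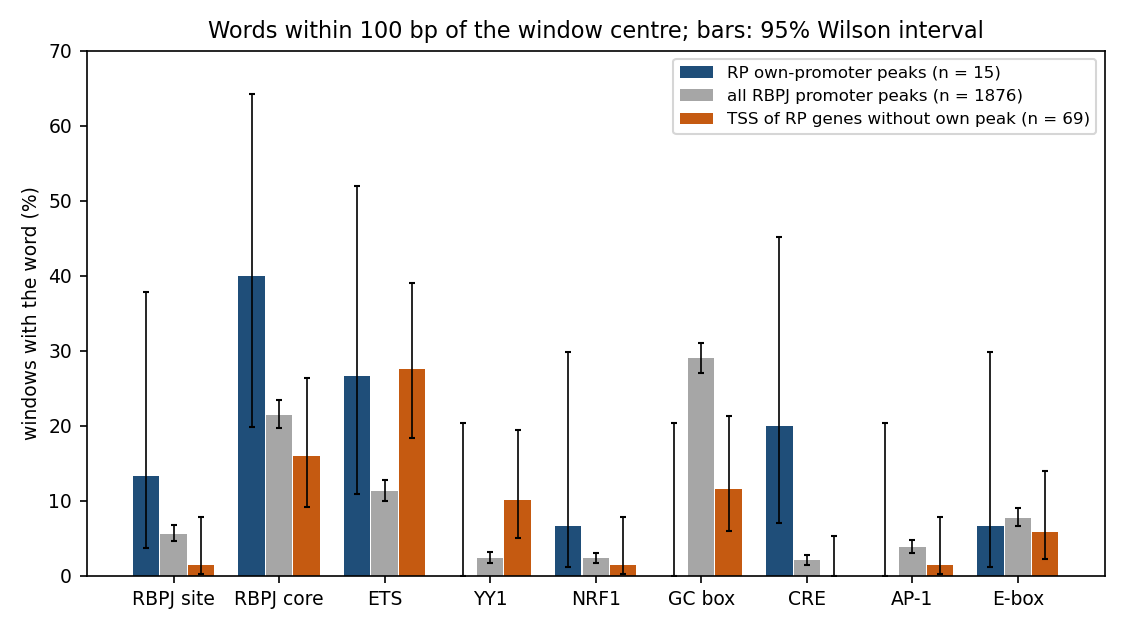
Percent of windows (vertical axis) that hold each word within 100 bp of the summit of ribosomal protein own-promoter peaks (n = 15) and of all RBPJ promoter peaks (n = 1876), or of the TSS of ribosomal protein genes without an own peak (n = 69); bars are 95% Wilson intervals. The CRE stands at 20% against 2.03% and 0%, while the GC box is at 0% against 29.0% and 11.6%.

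The starts of most members lay in or near a pyrimidine tract. A run of at least 8 pyrimidines within 25 bp of the canonical TSS was present at 12 of 12 members with an own peak (100%, 75.8 to 100) and at 59 of 69 without one (85.5%, 75.3 to 91.9). It was present at 14.1% of mitochondrial ribosomal protein genes and 19.4% of all protein-coding genes, so this feature was common in the family with or without a peak. RPL23A only just met the rule, with a run of 8 away from its start: between 20 bases before and 9 after the start its longest run was 3. Start sequences of 3 members are printed from 20 bases before to 9 bases after the canonical TSS, which is the 21st base, with the pyrimidine run in capitals. They are RPL5, where the hexamer TTCCCA begins in that run and ends 1 base past it, and 2 of the members with paired peaks.
RPL5, plus strand, chr1:93297577-93297606: gcctgcgcaagggctgtggCCCTTTTCCCa
RPL13A, plus strand, chr19:49990845-49990874: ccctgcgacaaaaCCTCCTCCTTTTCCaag
RPL39, minus strand, chrX:118925584-118925613: gctcgttcttccgccagCTTCCCTCCTCTT
At RPL5 the hexamer thus overlaps the TOP tract, with its centre 6 bp past the start, whereas the tracts of RPL13A and RPL39 hold no TGGGAA or TTCCCA.

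Other gene features did not separate the members with a peak. A snoRNA, a small RNA that guides rRNA modification and is often encoded in introns of these genes, lay within 5 of 12 genes with an own peak (41.7%) and 24 of 69 without (34.8%). Starts of other genes, read in the opposite direction, were sought within 1 kb upstream and 200 bp downstream of the canonical TSS. Such a start lay at 1 of 12 (8.33%, RPL18) and 15 of 69 (21.7%). The own peak of RPL6 is at an alternate start, which this count leaves out. Its summit was 52 bp from a start of PTPN11, which is read in the opposite direction. Median CpG ratios were 0.816 and 0.788.

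L3MBTL3 was not found near these genes. Its summits lay within 10 kb of 0 of 81 members, which allows a share of up to 3.70%, against 1.58% of all protein-coding genes and 2.21% of the CpG-rich ones. At the own promoter the count was likewise 0 of 81, against 1.31%. No RBPJ peak near a member overlapped an L3MBTL3 peak, against 0.603% of all genes with such a shared peak within 10 kb. At these background rates a list of 81 genes would hold few or none, so a count of 0 is not detectably below the background.

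The nearest L3MBTL3 summit to any member was 119791 bp away, at RPL18. Thus 0 of 81 had one within 100 kb, which allows a share of up to 3.70% (Wilson interval 0 to 4.53). Of all genes 4.53% had one, at the upper end of that interval, and so did 6 of 78 mitochondrial ribosomal protein genes. The CpG-rich share was not computed at this distance, and the difference was not tested. Median distances to the nearest L3MBTL3 summit were 3525000 bp for the members and 3789560 bp for all genes. For RBPJ the medians were 186509 bp and 269800 bp, and 33.3% of members against 21.8% of all genes had a summit within 50 kb. These values were not computed for the CpG-rich genes, the closer background, so no excess can be read from them.

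**Figure D5:**
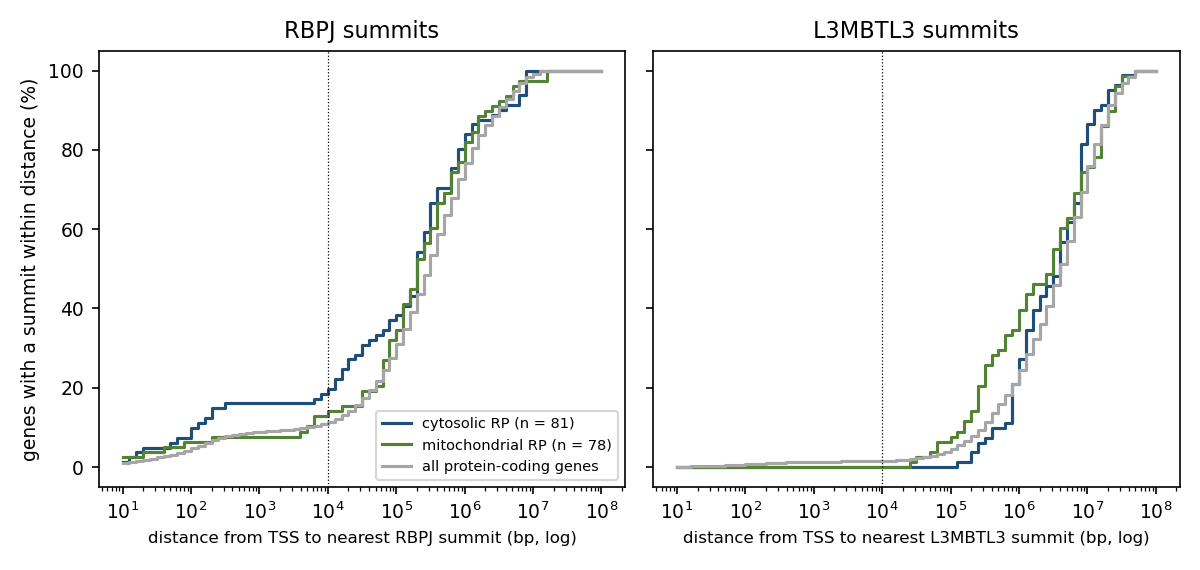
Cumulative share of genes (vertical axis, percent) with a summit within a given distance of a TSS (horizontal axis, bp, log scale) for RBPJ and L3MBTL3; the dotted line marks 10 kb. For RBPJ the ribosomal protein genes reach 19.8% at 10 kb and 33.3% at 50 kb, and for L3MBTL3 they stay at 0% up to 100 kb.

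The mitochondrial ribosomal protein genes, which are also nuclear and mostly CpG-rich (91.0%), had RBPJ summits within 10 kb at 11 of 78 (14.1%, 8.06 to 23.5) and an own peak at 6 of 78 (7.69%, 3.57 to 15.8). The intervals of both families overlap in both counts, so no difference between them can be read. The highest own fold was 5.56, at MRPL49 (chr11:64889657-64889835), which is read head to head with FAU, whose start was 168 bp from the summit. MRPL38 (5.08), MRPL4 (4.86), MRPL24 (4.73) and MRPS18B (3.62) followed, and MRPL2 was lowest with 3.61. The median of 4.79 was close to the 4.83 of the cytosolic members. None of the 6 had TGGGAA within 100 bp of the summit, which allows a share of up to 50%, against 21.5% of all promoter peaks. The YY1 word was at 2 of the 6 (MRPL49 and MRPS18B), against 2.35% of all promoter peaks. Starts of all mitochondrial ribosomal protein genes had the YY1 word at 26.9%. None of the 6 carried a pair of own peaks, against 17.4% of all protein-coding genes with an own peak. L3MBTL3 was within 10 kb of 0 of 78, which allows up to 3.85%.

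Among other genes of protein synthesis, 10 of 26 TOP mRNA genes outside the family had an own RBPJ peak (38.5%, 22.4 to 57.5), against 7.9% of all protein-coding genes and 11.3% of the CpG-rich ones. The list was chosen with earlier results of these data known, so its share is a description. It includes FAU, which encodes a ribosomal protein fused to a ubiquitin-like protein and falls outside the symbol rule: its nearest RBPJ peak was the MRPL49 peak. The following were named after their values were seen. EIF3K, an initiation factor subunit, had the highest fold, 8.83, and NACA, which binds nascent chains at the exit tunnel, had 7.30. EEF1A1, the factor that brings tRNA to the ribosome, had an RBPJ peak of fold 4.39 at its start that overlapped an L3MBTL3 peak of fold 3.87, which was the 1 shared peak in this list.

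Ribosome biogenesis genes, whose products make and modify rRNA, had an own peak at 3 of 35 (8.57%, 2.96 to 22.4), and oxidative phosphorylation genes at 2 of 34 (5.88%, 1.63 to 19.1). Both intervals include the 7.9% of all protein-coding genes and the 11.3% of the CpG-rich ones. The 21 members in which mutations cause Diamond-Blackfan anaemia, an inherited failure of red cell production, had an own peak at 4 (19.0%, 7.67 to 40.0): RPL5, RPL18, RPL31 and RPS29. That is near the 14.8% of the whole family. RPL36AL, a copy of RPL36A outside the symbol rule, had an own peak of fold 5.08, while the members RPL3L, RPL10L, RPL39L and RPS27L, copies of other members, had no summit within 10 kb.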

How the data were processed

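RBPJ and L3MBTL3 chromatin immunoprecipitation libraries of MDA-MB-231, 1 each, were analysed as deposited peak lists. Per the labels' protocols, 50-base single-end reads were adaptor-trimmed (Trimmomatic) and mapped to hg19 by BWA 0.7.15, to a depth of 30 to 40 megareads per library. Peak calls are from MACS2, per the submitters' processing notes. Not given in the sources used here are the caller's version, cutoff and control. The authors deposited for each peak its start, end and summit offset (positions in bp), the fold enrichment (a ratio), and −log10 values of p and of q. The deposited score is 10 times the −log10 q, cut to a whole number, with a largest mismatch of 0. The smallest deposited −log10 q was 1.31 (RBPJ) and 1.30 (L3MBTL3). Reads behind a peak are unknown, so folds were compared only within a list.

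Coordinates are 1-based in hg19, with sequence from GRCh37 and genes from GENCODE 44 lifted to it; RefSeq tables, which are of another build, were not used. Summits were assigned to the TSS of every protein-coding transcript of 19748 genes. Near meant within 10 kb, own promoter a nearest TSS within 1 kb, and shared an overlap of at least 1 bp; genes that read through a member were counted as the same locus. Words searched are given in the report; TGGGAA is part of the 8-base RBPJ word. Sites within 500 bp of a start were also listed. Calculations used Python 3.11.15, pandas 2.3.3, SciPy 1.17.1 and pysam 0.24.0, and the assignment and word search were tested on simulated data. Shares have 95% Wilson intervals, and a count of 0 is given with the share that 3 counts would be.

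The members and all lists were chosen with earlier results of these data known. The rule for naming took every member with an own RBPJ peak, a shared peak or an L3MBTL3 summit within 10 kb (there was none of the last 2). It also took the 6 neighbours and the 5 MRPL or MRPS genes with the highest folds (5 neighbours existed outside the family). Sequences were printed for own-promoter peaks with a word; whole peaks printed hold at most 6 UTR bases, the RPL23A word stretch 10, and start sequences, of 30 bases, partly or wholly overlap UTRs. Some members and sequences that these rules take are not reported here. Alternatives were distances of 1 and 50 kb, a −log10 q of at least 5, folds of at least the list median, canonical TSS, other own-promoter rules, other overlap rules, wider symbols and other word windows.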

Additional observations from a re-analysis of the deposited data

How the results depend on the processing

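No paired analysis was possible because each antibody has 1 library. Of 60 recomputed values 46 stayed within 1.5 times the count, or within 1 SD of the median fold, and 14 moved. For TGGGAA the share also had to stay inside the interval of the main share. Many of the 46 were counts of 0 for L3MBTL3 or shared peaks, which a stricter rule could not change. The 46 therefore overstate how stable the counts above 0 were. Keeping peaks with a −log10 q of at least 5 left 5 members near RBPJ (6.17%, against 2.65% of all genes). It left 3 with an own peak (RPL5, RPL13A and RPL23A), or 3.70% against 1.77% of all genes. Their median fold was 6.27, and TGGGAA was at 2 of these 3 peaks. The same rule left 1 mitochondrial ribosomal protein gene near and 0 with an own peak. Keeping folds of at least the list median left 10 members near and 5 with an own peak, with TGGGAA at 3 of 5 peaks. That fold rule left 5 and 2 mitochondrial ribosomal protein genes. Shares of all genes under the fold rule, and of TGGGAA at all promoter peaks under either rule, were not computed. No excess can therefore be read from the fold-rule counts or the TGGGAA counts. At 50 kb, 27 members were near RBPJ and 3 mitochondrial ribosomal protein genes near L3MBTL3; at 1 kb, 6 mitochondrial ribosomal protein genes were near RBPJ. The counts of 0 for L3MBTL3 and shared peaks at the members were 0 under each alternative run for them. Fewer peaks enter under the stricter rules, which can only lower a count. Of the 12 members with an own peak, 9 have only own peaks with a −log10 q under 5, and the reads behind them are unknown. Of the 1561 protein-coding genes with an own peak, 349 had one with a −log10 q of at least 5.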
